A study of Mus musculus with 40 samples.

Results

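The genes Ptpn5, Dgki, Rasgrf1, Slc35f3, Cyp3a57, Mal2, Dmbt1, Cxcl15, Agps and Gm16485, which are seldom discussed as estrogen targets, were followed through every group of a mouse mammary gland study. They are 10 of the 47729 gene symbols in the count tables, and they were picked because their counts were higher under estrogen at 60 h or 84 h, so their estrogen values are given as a description, with no p and with nothing read from their calls. The values that were open to a test are those under conjugated linoleic acid (CLA), a mix of isomers of linoleic acid, because no CLA library entered the choice, and then only for genes with enough counts in CLA mice and their controls.

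RNA came from 1 inguinal mammary gland per mouse, with its lymph node taken out, and the 8 groups held 5 Balb/cJ mice each. All 40 mice, controls included, had lost their ovaries at 21 d of age and had recovered for 7 d before treatment, so every group lacked ovarian hormone. Estrogen mice drank water with 200 nM estrogen and ate the control diet (AIN 93G based), and were killed at 60 h or 84 h beside control mice on the same diet. CLA mice ate the control diet with 2.7% CLA, stated in the labels as fat, and were killed at 108 h or 132 h beside their own control mice. The labels call the mice biological replicates, and each value below is from 1 mouse.

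Estrogen acts through estrogen receptor alpha, a nuclear receptor that binds DNA and is found in the mammary gland mainly in a share of the luminal cells that line the ducts. Progesterone receptor (Pgr) and amphiregulin (Areg) are its textbook targets there, and without ovaries the ductal tree of a young mouse stays small. Dietary CLA is known in mice for shrinking fat depots.

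Libraries held between 18.2e6 and 40.0e6 counts. Levels are CPM, counts scaled to a common library total with TMM factors over all 40 libraries, and "called" means an adjusted p below 0.05 in edgeR's quasi-likelihood F test with Benjamini-Hochberg adjustment over all genes tested. Of 17 luminal epithelial markers, 12 were called higher in estrogen mice at 60 h and 7 at 84 h, and 0 were called lower, with 16 at an unadjusted p under 0.05 at each time. Their summed level ran from 220 to 531 CPM in estrogen mice at 60 h, against 31.9 to 164 CPM in control mice. At 84 h the sum ran from 364 to 655 CPM in estrogen mice, against 34.2 to 227 CPM in control mice. More luminal cells and more RNA per cell cannot be told apart in such bulk tissue, and the part of either in the values below was not tested. The animal numbers of all 10 estrogen mice form a run without any control mouse, so estrogen and that run cannot be told apart. In 9 libraries a list of skin and hair genes averaged 2.75 to 7.03 log2 CPM, against -2.54 to 1.79 in the other 31. These 9 were 1 from estrogen at 60 h, 3 from estrogen at 84 h, 2 from control at 108 h and 3 from control at 132 h, with 0 from the CLA groups.

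**Figure D1:**
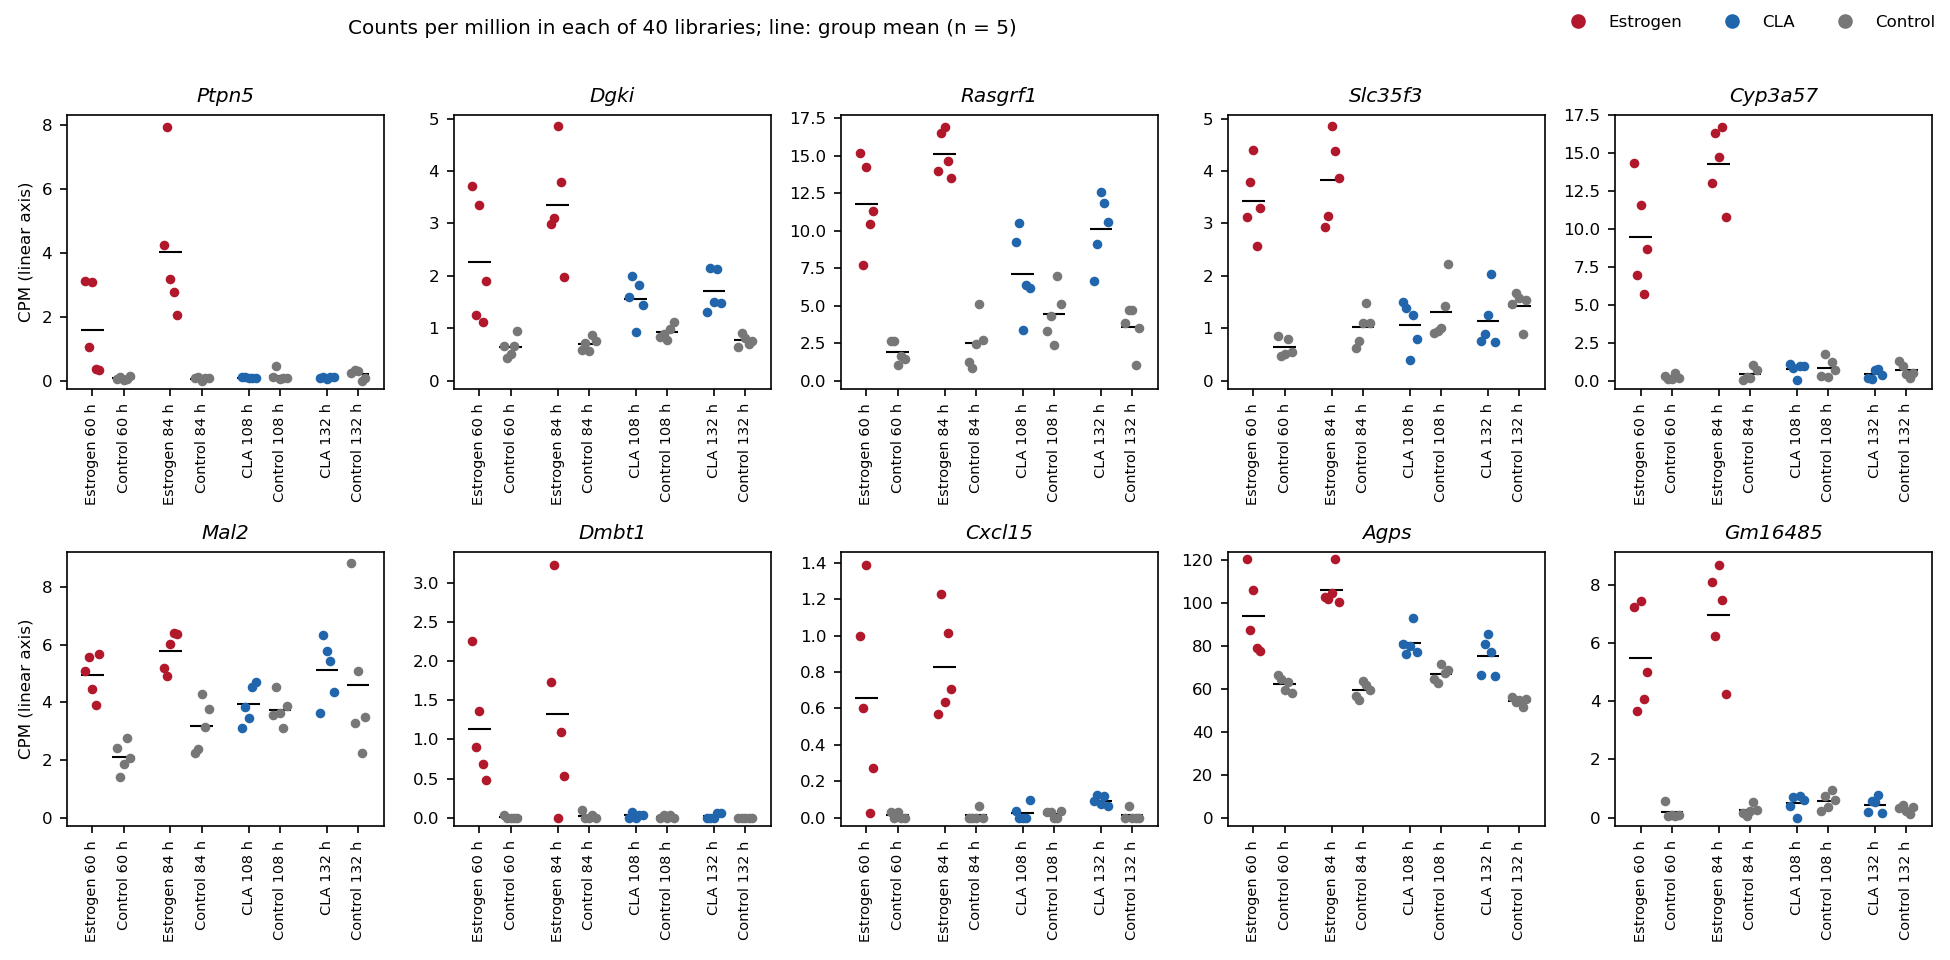
CPM of the 10 genes in each of 40 libraries, with 1 panel per gene, 1 point per mouse and a line at the mean of each group (n = 5). Estrogen points stand clear of control points in every panel except Cxcl15 at 60 h and Dmbt1 at 84 h, and CLA points stand clear of control points for Agps at both times and for Dgki and Rasgrf1 at 132 h.

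Under estrogen, 9 of the 10 genes passed the filter on low counts at 60 h and all 9 were called higher, where 4.07% of all 17248 genes tested were higher, 2.42% lower and 6.49% called in either direction. At 84 h 9 were tested and 8 called higher, where 3.45% of all 17180 were higher, 1.97% lower and 5.42% called in either direction, and Mal2 was tested but not called. The genes were picked on these contrasts, so nothing is read from either count. The libraries of the 2 groups did not overlap for 9 of 10 genes at each time, against 3.60% of all genes tested with every estrogen library above every control library at 60 h and 4.79% at 84 h. The exceptions were Cxcl15 at 60 h and Dmbt1 at 84 h, where 1 estrogen library each was at or near 0.

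Under CLA, Agps was called higher at 108 h and Dgki, Rasgrf1 and Agps at 132 h, where 24.9% and 27.0% of all genes tested were. The fit also called Cxcl15 at 132 h, which makes 1 of 9 genes tested at 108 h and 4 of 9 at 132 h, but some members passed the filter on low counts only with the estrogen libraries of the same table in it. These were Ptpn5 and Dmbt1 at 108 h and Ptpn5, Cxcl15 and Gm16485 at 132 h, and no test is read for them there. Filtered and fitted on CLA mice and their controls alone, 2 of 7 genes were called higher at 108 h (Dgki and Agps) and 3 of 6 at 132 h (Dgki, Rasgrf1 and Agps). The share of all genes called in those fits is not given here, so nothing particular is read from these counts. No member tested was called lower at either time by edgeR or DESeq2, where 23.0% and 29.0% of all genes were. Of the 9 in each fit, 3 had an unadjusted p under 0.05 at 108 h and 4 at 132 h, all of them higher in CLA mice. The 4 include Cxcl15, for which no test is read, so nothing is read from that shared direction. In either direction CLA called 47.9% of all genes at 108 h and 56.0% at 132 h, and against that background the counts of members called say nothing particular about them. Macrophage markers were higher and adipocyte markers lower in CLA mice: 5 of 5 macrophage genes tested were called higher at each time, and 5 of 6 adipocyte genes were called lower. The summed macrophage level was 1148 to 1749 CPM in CLA mice at 108 h, against 345 to 571 CPM in control mice, and 1175 to 2066 CPM in CLA mice at 132 h, against 255 to 377 CPM in control mice. The summed adipocyte level was 9746 to 12685 CPM in CLA mice at 108 h, against 12337 to 15474 CPM in control mice, and 8367 to 12942 CPM in CLA mice at 132 h, against 12038 to 17244 CPM in control mice. The luminal markers were called in few cases (1 of 17 lower at 108 h; 1 higher and 2 lower at 132 h). Other markers were lower in CLA mice: basal epithelium in 5 of 10 genes at 108 h and 6 of 10 at 132 h, skin and hair in 8 of 11 and 11 of 12, and skeletal muscle in 5 of 6 and 0 of 6, the last with 5 at an unadjusted p under 0.05. A gap of more than 10 in animal number was taken to start a new run. At 108 h the runs with both diets held 3 CLA and 2 control mice, and 2 CLA and 3 control mice. At 132 h they held 3 CLA and 2 control mice, 1 and 2, and 1 and 1. Dgki, Rasgrf1 and Agps were higher in CLA mice in every such run. Ptpn5, Slc35f3, Cyp3a57, Mal2 and Gm16485 differed in sign between runs at each time. The part of any of these cell types in the CLA values was not tested.

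**Figure D2:**
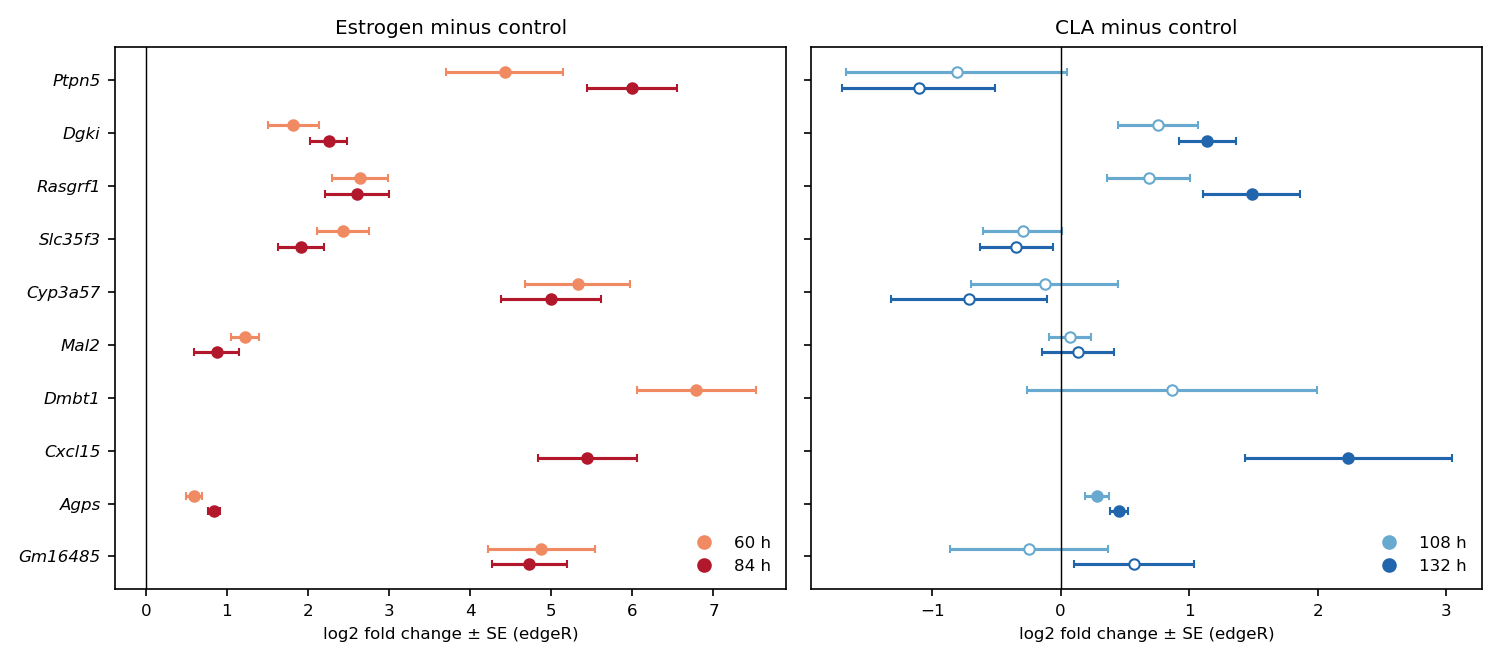
Log2 fold change ± SE from edgeR for estrogen minus control (left, 60 h and 84 h) and CLA minus control (right, 108 h and 132 h), 1 row per gene. In the right panel filled points are called and open points are not, while the left panel marks no call because the genes were picked on it. Genes with no point did not pass the filter on low counts, and the filled Cxcl15 point passed it only with estrogen libraries in the filter.

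The first 3 genes act on signalling from membranes to kinases. Ptpn5 encodes STEP, a phosphatase known from neurons that removes phosphate from ERK and related kinases, and its gene lies on chromosome 7 (chr7:47077795-47133684, GRCm38, minus strand). It had 3.12, 1.04, 3.09, 0.356 and 0.340 CPM in estrogen mice at 60 h, against 0.0607, 0.0993, 0.0296, 0.0346 and 0.129 CPM in control mice. Its 84 h libraries had 4.25, 7.92, 3.16, 2.79 and 2.05 CPM in estrogen mice, against 0.0652, 0.0953, 0, 0.0644 and 0.0711 CPM in control mice. At 60 h the estrogen mice spread widely, with 3 libraries above 1 CPM and the other two well below it, yet the lowest estrogen library was above the highest control library. The fitted log2 difference was 4.43 (SE 0.72) at 60 h and 6.0 (SE 0.56) at 84 h, where it rested on 567 counts in estrogen mice and 8 in control mice.

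Outside the estrogen groups Ptpn5 was close to 0. It averaged 0.0847 ± 0.0195 CPM in CLA mice at 108 h (SD, n = 5), against 0.150 ± 0.167 CPM in control mice, and 0.0924 ± 0.0337 CPM in CLA mice at 132 h, against 0.193 ± 0.143 CPM in control mice. The fitted log2 difference was -0.81 at 108 h and -1.11 at 132 h, on 13 and 24 counts in CLA and control mice at 108 h and on 14 and 26 at 132 h. Control replicate 2 at 108 h held 14 of those 24 control counts, and without it the difference at 108 h was 0.11. The deposited RPKM lay the other way, with means of 0.00635 in CLA mice at 108 h, against 0.00253 in control mice, and 0.00478 in CLA mice at 132 h, against 0.00322 in control mice. Within runs of animal numbers the difference was -1.14 and 0.13 log2 CPM at 108 h and -1.78, 0.84 and 0.42 at 132 h, so no direction under CLA is given for Ptpn5. Among 12 other phosphatases of MAP kinases, estrogen lowered Dusp4 at 60 h (log2 -1.12, SE 0.28, adjusted p 0.0272) and raised Dusp16 at 84 h (0.40, SE 0.11, adjusted p 0.0455). No other gene of the 12 was called at either time. Under CLA, Ptpn7 rose (2.07, SE 0.33, at 108 h; 2.70, SE 0.25, at 132 h), and so did Dusp5 (2.23 and 2.05), which dephosphorylates nuclear ERK. Counted over the 12, CLA raised 3 and lowered 1 at 108 h, and raised 2 and lowered 3 at 132 h.

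Dgki encodes diacylglycerol kinase iota, which turns the lipid messenger diacylglycerol into phosphatidic acid (chr6:36846022-37300184, minus strand). It had 3.72, 1.24, 3.35, 1.12 and 1.90 CPM in estrogen mice at 60 h, against 0.667, 0.430, 0.503, 0.657 and 0.939 CPM in control mice. At 84 h it had 2.99, 3.10, 4.85, 3.8 and 1.98 CPM in estrogen mice, against 0.587, 0.714, 0.571, 0.870 and 0.746 CPM in control mice. Control mice lay close together and every estrogen mouse lay above them, with log2 differences of 1.82 (SE 0.32) at 60 h and 2.25 (SE 0.22) at 84 h.

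CLA mice also had more Dgki counts. It had 1.59, 1.99, 0.933, 1.82 and 1.45 CPM in CLA mice at 108 h, against 0.826, 0.886, 0.777, 0.990 and 1.11 CPM in control mice, with 1 CLA library among the controls. The log2 difference of 0.76 (SE 0.31) missed the threshold at 108 h (adjusted p 0.0512). At 132 h it had 1.30, 2.15, 1.51, 2.13 and 1.48 CPM in CLA mice, against 0.649, 0.913, 0.810, 0.706 and 0.749 CPM in control mice, and Dgki rose by 1.14 (SE 0.22, adjusted p 0.000217) with no overlap. The deposited RPKM values, which are per kilobase of gene, followed the counts at 132 h but not at 108 h. They averaged 0.0177 ± 0.00772 in CLA mice at 108 h, against 0.0264 ± 0.0154 in control mice. At 132 h they averaged 0.0400 ± 0.0155 in CLA mice, against 0.0180 ± 0.0154 in control mice. With limma on log2(RPKM + 0.1) the CLA difference was -0.10 at 108 h, opposite in sign to the counts. At 132 h it was 0.25 and not called (adjusted p 0.195). The added 0.1 is above both means, so that scale understates the difference.

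The ratio of CPM to RPKM is a length in kilobases, and for Dgki it was not stable. It was 25.4 kb in estrogen mice at 60 h against 56.6 kb in control mice, and 88.1 kb in CLA mice at 108 h against 34.7 kb in control mice, while the exons of Dgki in GENCODE cover 6.24 kb of a 454 kb gene. For Mal2 and Agps the same ratio stayed at 3.70 to 4.18 kb and 11.9 to 13.7 kb over the 8 groups, beside exons of 2.95 and 9.42 kb. For Ptpn5 it was 8.67 and 9.65 kb in estrogen mice at 60 h and 84 h, but 59.2 and 60.05 kb in control mice at 108 h and 132 h, beside exons of 5.79 kb. For Rasgrf1 it ran from 35.1 to 48.4 kb, beside exons of 11.1 kb. For Slc35f3 it ran from 7.51 to 10.95 kb, beside exons of 2.31 kb, and for Cyp3a57 from 5.21 to 10.1 kb, beside exons of 1.99 kb. The count and RPKM tables thus do not measure Dgki and Ptpn5 alike in every group. Counts of Rasgrf1, Slc35f3 and Cyp3a57 also lie further above what their exons and RPKM give than those of Mal2 and Agps. Where in these genes the counted reads lie was not tested. An antisense gene (1700111E14Rik) and a transcribed pseudogene (Gm7452) lie inside Dgki on the other strand. The libraries were stranded, but the setting of the counting step is not given in the sources used here.

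Of 9 other diacylglycerol kinases, estrogen called 1 (Dgkh, -0.34, SE 0.09, adjusted p 0.0349, at 60 h), and 0 of 8 tested at 84 h, where 1 had an unadjusted p under 0.05 and DESeq2 also called 0. Under CLA the called genes went both ways. Dgkd fell (-0.58, SE 0.07, at 108 h; -0.94, SE 0.10, at 132 h) as did Dgke (-0.66, SE 0.12; -0.58, SE 0.10). Dgkz rose at both times (0.46, SE 0.07; 0.54, SE 0.10), and Dgkk, tested at 108 h alone, rose by 2.24 (SE 0.51, adjusted p 0.00133). Counted over the family, CLA raised 2 of 9 and lowered 3 at 108 h, and raised 1 of 8 and lowered 4 at 132 h, where 23.0% and 29.0% of all genes were lower. Next to Dgki on the chromosome lies Ptn, a growth factor gene 35.8 kb away, which was also called higher under estrogen (1.91, SE 0.37, adjusted p 0.0116, at 60 h; 1.93, SE 0.41, adjusted p 0.0103, at 84 h) and under CLA at 132 h (1.21, SE 0.40, adjusted p 0.0170). The tested neighbour on the other side, Creb3l2, differed under estrogen by 0.05 and 0.02, neither called.

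Rasgrf1 encodes an exchange factor that loads Ras with GTP, best known from neurons and as an imprinted gene in mice (chr9:89909908-90026977, plus strand). It had 15.2, 7.70, 14.2, 10.4 and 11.3 CPM in estrogen mice at 60 h, against 2.64, 2.65, 1.06, 1.66 and 1.42 CPM in control mice. Its 84 h libraries had 14, 16.5, 16.9, 14.6 and 13.5 CPM in estrogen mice, against 1.24, 0.857, 2.45, 5.09 and 2.74 CPM in control mice. The estrogen mice were the tightest at 84 h and stood far above every control, with log2 differences of 2.64 (SE 0.34) at 60 h and 2.60 (SE 0.39) at 84 h.

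At 132 h Rasgrf1 had the largest CLA difference of the 6 members with enough counts in those groups alone. It had 9.22, 10.5, 3.36, 6.36 and 6.16 CPM in CLA mice at 108 h, against 3.30, 4.34, 2.36, 6.99 and 5.11 CPM in control mice, so the groups overlapped and the difference of 0.68 (SE 0.32) was not called (adjusted p 0.0865). At 132 h it had 6.64, 9.09, 12.6, 11.8 and 10.5 CPM in CLA mice, against 3.81, 4.69, 4.71, 1.06 and 3.48 CPM in control mice. All 5 CLA mice were above all 5 controls and Rasgrf1 rose by 1.49 (SE 0.38, adjusted p 0.00257), a call kept by counts and RPKM under every alternative run with an adjusted p of 3.85e-05 to 0.0146. Its RPKM followed the counts, with 0.287 ± 0.0746 in CLA mice at 132 h, against 0.0799 ± 0.0490 in control mice (SD, n = 5). Within each run of animal numbers that held both diets the CLA level was higher, by 0.86 and 0.51 log2 CPM in the 2 runs at 108 h and by 1.11, 2.40 and 1.59 in the 3 runs at 132 h. The values 2.40 and 1.59 each rest on 1 CLA mouse.

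Of 7 other Ras exchange factors, CLA lowered 5 and raised 0 at 108 h, and lowered 4 and raised 0 at 132 h, where 23.0% and 29.0% of all genes were lower. Its closest relative Rasgrf2 fell (-0.44, SE 0.09, adjusted p 0.00041; -0.74, SE 0.09, adjusted p 5.03e-07), as did Rasgrp2, a factor of platelets and lymphoid cells (-0.66, SE 0.12; -1.21, SE 0.13). Under estrogen only Sos2 of these 7 was called, lower at 60 h (-0.23, SE 0.06) and at 84 h (-0.25, SE 0.05).

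The next 3 genes handle small molecules. Slc35f3 encodes a membrane carrier linked in human cells to thiamine transport (chr8:126298558-126395482, plus strand). It had 3.12, 3.8, 4.4, 2.58 and 3.29 CPM in estrogen mice at 60 h, against 0.849, 0.463, 0.503, 0.795 and 0.550 CPM in control mice. At 84 h it had 2.93, 3.14, 4.85, 4.39 and 3.87 CPM in estrogen mice, against 0.619, 0.762, 1.10, 1.48 and 1.10 CPM in control mice. The groups did not overlap, and the log2 difference was 2.44 (SE 0.32) at 60 h and 1.91 (SE 0.29) at 84 h.

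Slc35f3 was not called under CLA. It averaged 1.06 ± 0.456 CPM in CLA mice at 108 h, against 1.30 ± 0.550 CPM in control mice, and 1.13 ± 0.544 CPM in CLA mice at 132 h, against 1.43 ± 0.313 CPM in control mice (SD, n = 5). The log2 difference was -0.30 (-0.95 to 0.35, adjusted p 0.457) and -0.35 (-0.94 to 0.25, adjusted p 0.313). Without CLA replicate 4 at 132 h, the highest CLA library with 2.04 CPM, the difference was -0.67 and called (adjusted p 0.0359). Of the other SLC35F carriers and thiamine genes, 0 of 8 were called under estrogen at 60 h and 0 of 9 at 84 h by edgeR, with 1 at an unadjusted p under 0.05 at each time and 0 called by DESeq2. Counted over that list, CLA raised 3 of 8 and lowered 3 at 108 h, and raised 4 of 9 and lowered 3 at 132 h. Of all genes, 24.9% and 27.0% were higher and 23.0% and 29.0% lower. Among the genes raised, Slc35f6 rose by 0.93 (SE 0.06) at 108 h and 0.93 (SE 0.09) at 132 h. The thiamine carrier gene Slc19a2 rose by 0.76 (SE 0.09) at 108 h and 0.39 (SE 0.14) at 132 h.

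Cyp3a57 is a cytochrome P450 of the 3A family, whose members oxidise steroids and drugs, mostly in liver and gut (chr5:145345279-145390926, plus strand). The windows of 250 bases before the gene start are shown for it and for 2 other members, because it was the only one of the 7 members with a promoter in the RefSeq table (GRCm38.p6, 9 promoters) that held AGGTCA or its complement TGACCT, the core letters of an estrogen response element. Capitals mark these letters.
Cyp3a57, chr5:145345019-145345268, plus strand: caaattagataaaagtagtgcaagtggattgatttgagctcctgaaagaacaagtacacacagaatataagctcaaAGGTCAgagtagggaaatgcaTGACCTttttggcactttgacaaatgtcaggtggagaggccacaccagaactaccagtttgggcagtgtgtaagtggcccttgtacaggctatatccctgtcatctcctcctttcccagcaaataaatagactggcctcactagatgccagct
Ptpn5, chr7:47133685-47133934, minus strand: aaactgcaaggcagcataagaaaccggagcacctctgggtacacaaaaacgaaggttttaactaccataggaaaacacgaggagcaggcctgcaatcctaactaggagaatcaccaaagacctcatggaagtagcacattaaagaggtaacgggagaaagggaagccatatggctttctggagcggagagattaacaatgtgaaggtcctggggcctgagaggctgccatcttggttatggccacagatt
Rasgrf1, chr9:89909525-89909774, plus strand: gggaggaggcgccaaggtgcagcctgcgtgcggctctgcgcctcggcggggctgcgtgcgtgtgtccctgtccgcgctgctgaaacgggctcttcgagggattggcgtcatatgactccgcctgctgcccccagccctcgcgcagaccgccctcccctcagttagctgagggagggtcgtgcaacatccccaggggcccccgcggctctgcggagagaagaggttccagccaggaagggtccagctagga

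The letters begin 174 and 153 bases before the Cyp3a57 start and lie 15 bases apart. Over windows of 250 bases before and 50 after the start, on both strands, 16.3% of 32851 promoters held at least 1 such match and 1.81% held at least 2. The full palindrome GGTCANNNTGACC was in 0 of the 9 windows and in 0.0700% of all. A match is a description of letters and not of binding, and no match says only that these letters are not in the window.

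Cyp3a57 had 14.3, 6.96, 11.6, 5.73 and 8.66 CPM in estrogen mice at 60 h, against 0.273, 0.132, 0.0887, 0.519 and 0.162 CPM in control mice. Its 84 h libraries had 13, 16.3, 14.7, 16.7 and 10.8 CPM in estrogen mice, against 0.0652, 0.238, 0.163, 1.03 and 0.675 CPM in control mice. The lowest estrogen library was an order of magnitude above the highest control library at each time, and the log2 difference was 5.33 (SE 0.65) at 60 h and 5.00 (SE 0.61) at 84 h.

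CLA left no called difference in Cyp3a57. It averaged 0.782 ± 0.418 CPM in CLA mice at 108 h, against 0.840 ± 0.629 CPM in control mice, and 0.413 ± 0.312 CPM in CLA mice at 132 h, against 0.665 ± 0.431 CPM in control mice (SD, n = 5). The log2 difference was -0.12 (-1.32 to 1.07, adjusted p 0.879) and -0.71 (-1.98 to 0.56, adjusted p 0.332). Within runs of animal numbers it was -0.85 and 0.63 log2 CPM at 108 h and -2.28, 1.40 and -0.37 at 132 h. CLA replicate 3 at 108 h stood apart with 0.0533 CPM beside 0.853 to 1.11 CPM in the other CLA mice, and the same library had the lowest luminal marker sum of its group, 39.5 CPM beside a median of 273 CPM. Of 8 other Cyp3a genes only Cyp3a13 had enough counts to test, and it was not called under estrogen at either time. CLA lowered it at 132 h (-2.28, SE 0.79, adjusted p 0.0196), a call not made by DESeq2, by limma on RPKM or with only those groups in the fit, and at 108 h it was not called (-0.12, SE 0.39). Near-identical copies in this family can share reads, so its counts are less certain than those of single-copy genes.

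Agps encodes the peroxisomal enzyme that sets the ether bond in plasmalogens and other ether lipids (chr2:75832177-75931350, plus strand), and it was the most abundant member per length. It had 120, 87.6, 106, 78.9 and 77.7 CPM in estrogen mice at 60 h, against 66.6, 64.4, 59.5, 63.1 and 58.1 CPM in control mice. At 84 h it had 103, 102, 105, 120 and 101 CPM in estrogen mice, against 56.9, 55.0, 63.9, 61.8 and 59.6 CPM in control mice. The log2 difference was the smallest of the set, 0.60 (SE 0.10) at 60 h and 0.84 (SE 0.07) at 84 h, and the narrow spread between mice kept the groups apart.

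In the fit with 4 groups Agps was the only member called under CLA at both times. With only CLA mice and their controls in the fit, Dgki was called at both times too. Agps had 81.1, 76.4, 79.9, 93.3 and 77.0 CPM in CLA mice at 108 h, against 64.6, 62.9, 71.5, 67.3 and 68.9 CPM in control mice, and rose by 0.28 (SE 0.10, adjusted p 0.0210). At 132 h it had 66.4, 81.1, 85.7, 77.3 and 65.9 CPM in CLA mice, against 56.1, 54.1, 54.9, 51.7 and 55.3 CPM in control mice, and rose by 0.45 (SE 0.07, adjusted p 1.9e-05). The groups did not overlap at either time, against 18.1% of all genes tested with every CLA library above every control library at 108 h and 20.8% at 132 h. The call at 108 h was lost with upper-quartile scaling (0.22, adjusted p 0.0696), without the 9 libraries high in skin genes (0.23, adjusted p 0.0868) and without CLA replicate 4 (0.23, adjusted p 0.0659). At 132 h it was kept under every alternative run, with a difference of 0.40 to 0.61 in counts and RPKM. The CLA level was higher in each run of animal numbers, by 0.31 and 0.29 log2 CPM at 108 h and by 0.49, 0.54 and 0.25 at 132 h. The values 0.54 and 0.25 each rest on 1 CLA mouse.

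Other genes of a list of ether lipid and peroxisomal genes were called in both directions. Estrogen called 1 of 12 genes tested at each time, both lower: Phyh, which breaks down branched fatty acids (-0.33, SE 0.09), at 60 h and Agmo, which cleaves ether lipids (-0.33, SE 0.09), at 84 h. CLA lowered 6 of 12 and raised 2 at 108 h, and lowered 7 and raised 1 at 132 h, where 24.9% and 27.0% of all genes rose and 23.0% and 29.0% fell. Gnpat, whose enzyme acts just before Agps, fell (-0.54, SE 0.07; -0.79, SE 0.08, adjusted p 1.57e-07). So did Chpt1, which adds the choline head group (-0.99, SE 0.11; -0.95, SE 0.10), and Pex7, the import receptor that carries Agps into peroxisomes (-0.31, SE 0.06; -0.42, SE 0.05). Far1, which supplies the fatty alcohol that Agps uses, rose (0.27, SE 0.11, adjusted p 0.0463; 0.80, SE 0.15, adjusted p 0.000183).

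Mal2 and Dmbt1 belong to epithelial surfaces. Mal2 is a membrane protein needed for transport to the apical face of polarised cells (chr15:54571192-54602847, plus strand). It had 5.08, 5.58, 4.46, 3.89 and 5.67 CPM in estrogen mice at 60 h, against 2.43, 1.42, 1.86, 2.77 and 2.07 CPM in control mice, a log2 difference of 1.22 (SE 0.17). For 84 h the values were 5.20, 4.92, 6.01, 6.41 and 6.35 CPM in estrogen mice, against 2.25, 2.38, 4.28, 3.13 and 3.77 CPM in control mice, a difference of 0.87 (SE 0.28). The groups did not overlap at either time, with the gap at 84 h the narrower.

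Mal2 averaged 3.94 ± 0.683 CPM in CLA mice at 108 h, against 3.74 ± 0.517 CPM in control mice, and 5.10 ± 1.09 CPM in CLA mice at 132 h, against 4.59 ± 2.59 CPM in control mice (SD, n = 5). The log2 difference was 0.07 (-0.28 to 0.42, adjusted p 0.752) and 0.14 (-0.44 to 0.71, adjusted p 0.702). The wide control spread at 132 h came from replicate 1 with 8.84 CPM, which is also the library with the highest skin and hair signal of the 40. Without the 9 libraries high in that signal the CLA difference at 132 h was 0.82 and called (adjusted p 0.0364). That fit sets 5 CLA mice against only 2 control mice, with 2.23 and 3.48 CPM, and the part of skin in it was not tested. Among 9 other MARVEL domain proteins, estrogen raised Ocln, Marveld2 and Marveld3 at 60 h, all parts of tight junctions (1.89, SE 0.45; 1.42, SE 0.36; 2.26, SE 0.55), and lowered Marveld1 (-0.31, SE 0.09). At 84 h 0 of 9 were called by edgeR, with 4 at an unadjusted p under 0.05 and 3 called higher by DESeq2. Under CLA Plp2 rose at both times (0.85, SE 0.09; 0.84, SE 0.10) and 3 of 9 fell at each, among them Marveld1 (-0.42, SE 0.09; -0.38, SE 0.10).

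Dmbt1 is a large secreted scavenger receptor of mucosal surfaces (chr7:131032053-131121630, plus strand), and nearly all its counts were in the estrogen groups. It had 2.26, 0.907, 1.36, 0.685 and 0.475 CPM in estrogen mice at 60 h, against 0.0303, 0, 0, 0 and 0 CPM in control mice. At 84 h it had 1.73, 3.23, 0, 1.10 and 0.538 CPM in estrogen mice, against 0.0978, 0, 0, 0.0322 and 0 CPM in control mice. Estrogen replicate 3 at 84 h had no count in a library where the other 9 members lay within or above the range of its group mates, so estrogen and control overlapped there. Summed counts were 182 in estrogen mice and 1 in control mice at 60 h, a ratio per scaled depth of 177 (31.4 to 7035, exact Poisson interval for counting error alone), and 197 and 4 at 84 h, a ratio of 49.4 (19.0 to 183). The fitted log2 difference at 60 h, 6.79 (SE 0.73), became 8.17 without the single control library that held a count.

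In CLA mice Dmbt1 had 4 counts at 108 h, against 2 in control mice, and 4 at 132 h, against 0 in control mice. Both sums are at or near the 3 counts that a sum of 0 allows, so no CLA difference was detectable at this depth. The annotated span of Fgfr2 overlaps Dmbt1 on the other strand. Of 15 other scavenger receptor cysteine-rich genes, estrogen called Ssc4d higher at 60 h (0.58, SE 0.13, adjusted p 0.0144) and 0 at 84 h by edgeR, with 2 at an unadjusted p under 0.05 and 1 called lower by DESeq2. CLA raised 5 and lowered 2 at 108 h, and raised 6 and lowered 3 at 132 h. Msr1, a receptor of macrophages, rose by 1.81 (SE 0.53) and 2.76 (SE 0.34), and Ssc5d by 0.70 (SE 0.13) and 1.01 (SE 0.12).

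Cxcl15, or lungkine, is a chemokine known in the mouse from lung epithelium, where it draws neutrophils (chr5:90794534-90803067, plus strand). It had 0.995, 0.605, 1.39, 0.0274 and 0.272 CPM in estrogen mice at 60 h, against 0.0303, 0, 0.0296, 0 and 0 CPM in control mice. Estrogen replicate 4 had a single count and lay among the controls. For 84 h the values were 0.567, 1.23, 0.633, 1.01 and 0.706 CPM in estrogen mice, against 0, 0, 0, 0.0644 and 0 CPM in control mice, and the groups were apart. The ratio of summed counts per scaled depth was 51.6 (13.9 to 431) at 60 h and 56.6 (15.3 to 473) at 84 h, on 106 and 113 counts in estrogen mice and 2 in control mice at each time. The fitted log2 difference at 84 h was 5.45 (SE 0.61), and 7.49 without the control library that held both counts.

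In CLA mice and their controls Cxcl15 had very few reads, and it entered the 132 h fit only through its counts in estrogen mice. At 132 h it had 2, 4, 2, 4 and 2 counts in CLA mice, against 0, 2, 0, 0 and 0 counts in control mice, a ratio per scaled depth of 5.75 (1.32 to 52.1) for counting error alone. The groups overlapped only through control replicate 2. The fit gave a log2 difference of 2.24 (SE 0.80, adjusted p 0.0236), which is not read as a call, and 4.4 without that replicate. It lay past the threshold no longer without control replicate 1, 3 or 5 (adjusted p 0.0539, 0.0559 and 0.0515), without the 9 libraries high in skin genes (4.42, adjusted p 0.0520), and with limma on log2(RPKM + 0.1) (0.11, adjusted p 0.50). At 108 h it had 4 counts in CLA mice and 3 in control mice, a ratio of 1.38 (0.233 to 9.40). Even at 132 h the CLA level, 0.0940 ± 0.0273 CPM, was well under that of estrogen mice.

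The neighbours of Cxcl15 are other genes of the CXC cluster on chromosome 5. Within 101 kb of Cxcl15 lie Cxcl5, Ppbp, Pf4, Cxcl3, Cxcl1 and Cxcl2, and 0 of 6 were called at 60 h by edgeR, with 2 at an unadjusted p under 0.05. At 84 h 5 were tested and 0 called, with 1 at an unadjusted p under 0.05. Since 6.49% and 5.42% of all genes were called, nothing particular is read from these counts. Areg, which begins 336531 bases beyond Cxcl15, was called higher (8.88, SE 1.35, at 60 h; 8.94, SE 1.02, at 84 h). Over the whole list of 21 other CXC chemokines and receptors, estrogen raised Cxcl14 (1.18, SE 0.25, adjusted p 0.0140) and the decoy receptor Ackr3 (0.34, SE 0.10) and lowered Cxcl9 (-0.71, SE 0.20) at 60 h, of 18 tested. At 84 h it called 0 of 16 by edgeR, with 3 at an unadjusted p under 0.05, while DESeq2 called 1 higher and 1 lower. Under CLA 6 of 18 were higher and 1 lower at 108 h and 8 of 16 higher and 1 lower at 132 h, where 24.9% and 27.0% of all genes were higher. They were led by the neutrophil chemokine Cxcl1 (2.04, SE 0.49; 2.96, SE 0.41) and joined by Pf4 (1.28, SE 0.22; 1.55, SE 0.12).

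Gm16485 is a predicted gene with a single exon of 3.98 kb and no known role, on chromosome 9 (chr9:8971791-8975773, plus strand). It begins 3179 bases past the annotated end of Pgr (chr9:8899833-8968611) on the same strand. It had 7.23, 3.66, 7.46, 4.08 and 4.99 CPM in estrogen mice at 60 h, against 0.576, 0.0662, 0.0887, 0.0692 and 0.0971 CPM in control mice. At 84 h it had 8.10, 6.24, 8.70, 7.47 and 4.24 CPM in estrogen mice, against 0.163, 0.0476, 0.245, 0.548 and 0.249 CPM in control mice. No control mouse came near an estrogen mouse, and the log2 difference was 4.88 (SE 0.66) at 60 h and 4.73 (SE 0.46) at 84 h, with 6.02 at 60 h once control replicate 1 was left out.

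In estrogen mice the CPM of Gm16485 kept to a nearly fixed share of Pgr. It was 20.0% to 22.9% of the Pgr CPM of the same library in the 5 estrogen mice at 60 h and 19.3% to 22.8% in the 5 at 84 h. The median share in the other groups was 20.3% in CLA mice at 108 h against 22.9% in control mice, 19.7% in CLA mice at 132 h against 21.4% in control mice, and 14.3% and 24.6% in control mice at 60 h and 84 h. The range was wider in those groups, where counts were low, with 5.13% to 24.7% in control mice at 60 h and 7.69% to 71.4% at 84 h. The share holds for CPM only, since the ratio of CPM to RPKM for Pgr was 17.3 to 27.2 kb, beside exons of 8.55 kb. In estrogen mice the mean RPKM was 1.04 for Gm16485 and 1.48 for Pgr at 60 h, and 1.32 and 1.94 at 84 h. Pgr itself was called higher under estrogen, by 4.50 (SE 0.57, adjusted p 0.000689) at 60 h and 4.88 (SE 0.59, adjusted p 9.4e-05) at 84 h. The neighbour on the other side, Arhgap42 on the opposite strand, differed by -0.01 at both times and was not called. Whether Gm16485 reads belong to a longer Pgr transcript was not tested, since the tables hold no read positions.

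**Figure D3:**
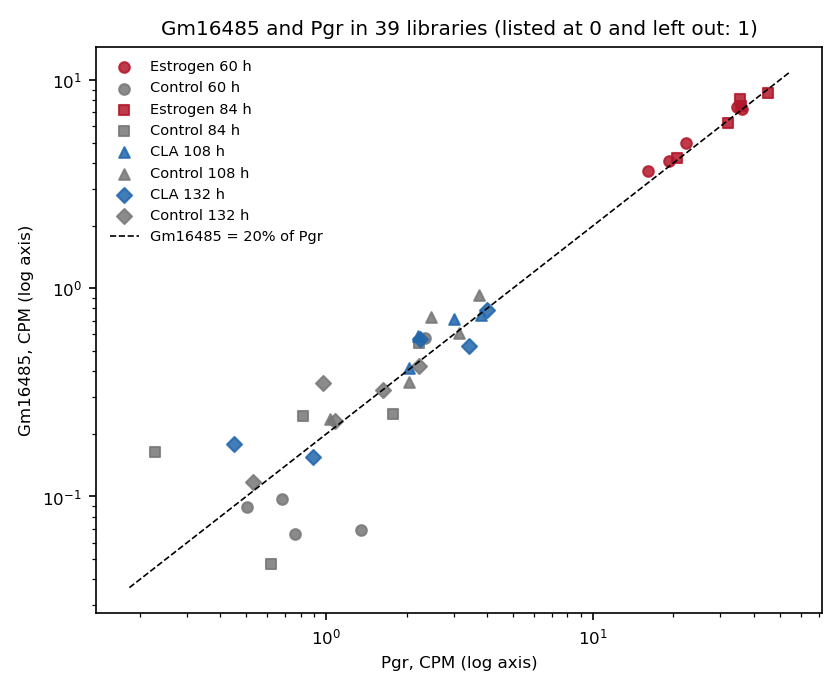
Gm16485 against Pgr in CPM, both on log axes, 1 point per library, with the dashed line at a share of 20%. The 10 estrogen libraries lie along the line at the upper right, the CLA and control libraries scatter about it at the lower left, and the 1 CLA library at 108 h with no Gm16485 count is left out.

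Gm16485 averaged 0.492 ± 0.303 CPM in CLA mice at 108 h, against 0.572 ± 0.281 CPM in control mice, and 0.443 ± 0.271 CPM in CLA mice at 132 h, against 0.290 ± 0.118 CPM in control mice (SD, n = 5). The log2 difference was -0.25 (-1.53 to 1.04, adjusted p 0.771) at 108 h and 0.57 at 132 h. For Pgr it was -0.15 (SE 0.52, adjusted p 0.838) and 0.74 (SE 0.55, adjusted p 0.267).

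No difference between the CLA effects at 132 h and 108 h was called for any of the 10 genes. In a fit of all 40 libraries, 0 of 10 were called for that change by edgeR and 0 had an unadjusted p under 0.05. In that fit 0% of all 17852 genes were called, and DESeq2 also called 0 of 10. Ptpn5, Dmbt1 and Cxcl15 held only 0 to 26 counts in each CLA or control group at 108 h and 132 h. They passed the filter through their estrogen libraries, so no test is read for them in this fit. The intervals are wide: the CLA difference at 132 h minus that at 108 h was 0.82 (-0.21 to 1.84) for Rasgrf1, 0.40 (-0.38 to 1.18) for Dgki and 0.18 (-0.06 to 0.43) for Agps, so a call at 132 h alone is no sign that the effect grew. Between control mice at 132 h and control mice at 108 h 0 of 10 were called by edgeR, with 1 at an unadjusted p under 0.05, where 2.75% of all genes were called, with 1.92% of all lower at 132 h. That gene was Agps, with 54.4 ± 1.69 CPM at 132 h against 67 ± 3.42 CPM at 108 h, a difference of -0.30 (SE 0.09, adjusted p 0.0503). DESeq2 called Agps there.

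Per kilobase, from the deposited RPKM, the members spanned a wide range in estrogen mice at 84 h. Agps averaged 8.07 ± 0.668 RPKM, followed by Cyp3a57 (1.80 ± 0.314), Mal2 (1.47 ± 0.171) and Gm16485 (1.32 ± 0.356). Slc35f3 (0.511 ± 0.0961), Ptpn5 (0.418 ± 0.220) and Rasgrf1 (0.407 ± 0.0506) formed the middle, and Cxcl15 (0.289 ± 0.0920), Dmbt1 (0.147 ± 0.145) and Dgki (0.134 ± 0.0714) the low end. The neighbours in this order from Cyp3a57 to Gm16485 differ by less than or about 1 SD, as do Slc35f3 to Rasgrf1 and Dmbt1 to Dgki. In control mice at 84 h the order was another, with Agps at 4.34 ± 0.297 and Mal2 at 0.757 ± 0.224 RPKM far above the rest. The next was Slc35f3 at 0.132 ± 0.0559, and Cxcl15 was listed at 0 in all 5.

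To see which genes varied with each member from mouse to mouse, log2 CPM was centred on the mean of its group, and Pearson's r was taken over the 40 libraries with each of up to 12310 genes of at least 1 mean log2 CPM. Mice of 1 group share their diet, and all share a scaling, so these r values are a description. Gm16485 was most like Lmx1b (r = 0.89, rho = 0.86), Ptn (0.88, 0.86) and Nrxn3 (0.87, 0.84). Rasgrf1 was most like Marveld3 (0.86, 0.78), Fxyd3 (0.86, 0.78) and Cited1 (0.85, 0.84), an estrogen-responsive co-activator. Cyp3a57 was most like Pgr (0.83, 0.80), and then the epithelial genes Cldn3 (0.81, 0.79) and Spint2 (0.80, 0.78). Slc35f3 was most like Lmx1b (0.82, 0.82), Tmc4 (0.82, 0.84) and Tfcp2l1 (0.82, 0.81).

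The other members had weaker nearest genes. Mal2 was most like Rab11fip4 (r = 0.81, rho = 0.78), Sec14l2 (0.75, 0.59) and Cobl (0.72, 0.65). Ptpn5 was most like Mdga1 (0.75, 0.69), Slc25a37 (0.74, 0.72) and Ulk4 (0.72, 0.68), Dgki most like Col16a1 (0.72, 0.75), Zfp451 (0.70, 0.65) and Rpl15 (0.67, 0.65), and Agps most like Itgav (0.74, 0.74), Adam10 (0.73, 0.79) and Cenpl (0.71, 0.68). For the sparsest, Cxcl15 (Nrg1, 0.65; Kif22, 0.61; Mfsd2a, 0.60) and Dmbt1 (Mettl6, 0.62; Med17, 0.55; Gabrb2, 0.53), such values are no finding. Centred in the same way, the mean of the 17 luminal markers followed Rasgrf1 (r = 0.84), Gm16485 (0.84), Cyp3a57 (0.78) and Slc35f3 (0.75) closely. It followed Mal2 (0.58), Dgki (0.50) and Agps (0.42) less, and Cxcl15 (0.30), Ptpn5 (0.27) and Dmbt1 (0.13) little. These values were not particular to luminal markers. The basal list had r of 0.70 with Gm16485, 0.69 with Rasgrf1, 0.66 with Cyp3a57 and 0.56 with Slc35f3. It was above the luminal list for Mal2 (0.64), Ptpn5 (0.37) and Cxcl15 (0.37), and below it for Dgki (0.42), Agps (0.20) and Dmbt1 (0.08).

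**Figure D4:**
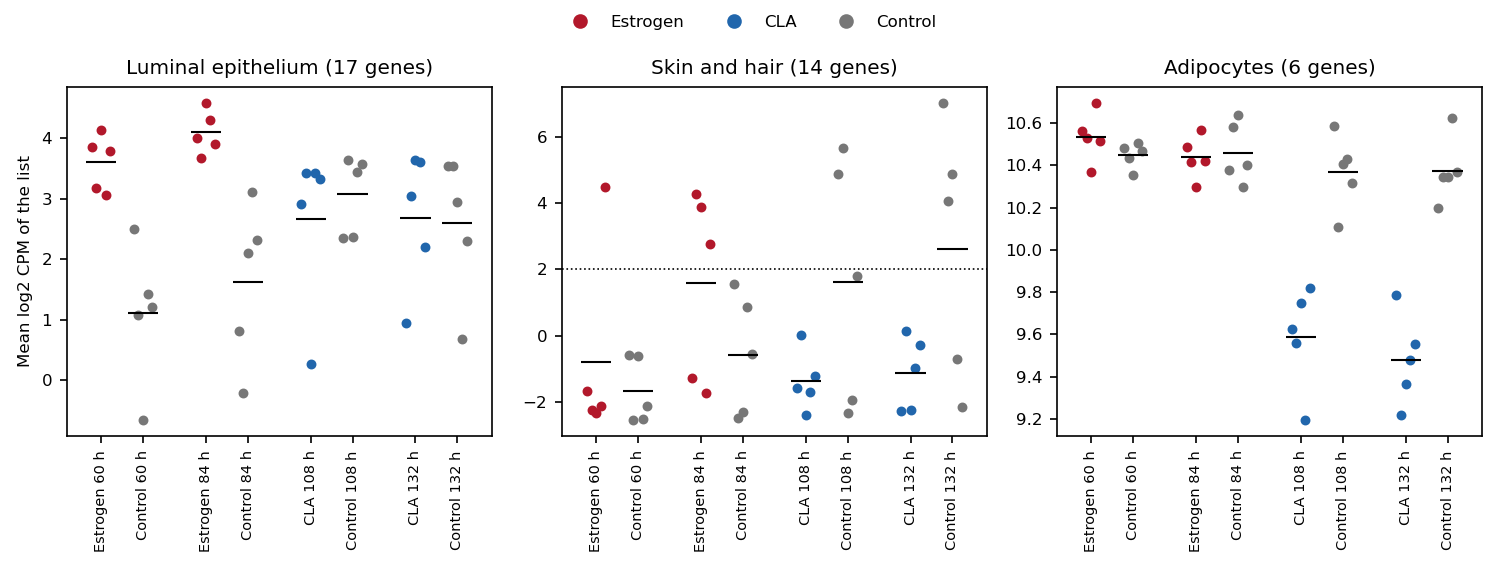
Mean log2 CPM of 3 marker lists in each library, with a line at the mean of each group (n = 5) and a dotted line at 2 in the skin and hair panel. The luminal mean is higher in estrogen mice at both times, the 9 libraries above the dotted line are 4 estrogen and 5 control libraries, and the adipocyte mean is lower in CLA mice.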

How the data were processed

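The count values were deposited by the authors as 2 tables, one pairing 60 h with 108 h and the other 84 h with 132 h, and the authors' RPKM values as 2 more of the same layout. Per the labels' protocols the libraries were stranded, poly(A)-enriched and made with 10 PCR cycles. Per the submitters' processing notes the build was GRCm38; how reads were aligned and counted is not given in the sources used here. Here the counts were tested with edgeR 4.0.16 (R 4.3.3; TMM, filterByExpr with minimum count 10 and total 15, robust quasi-likelihood F test, Benjamini-Hochberg threshold 0.05), with the 4 groups of a table in 1 fit and all 40 libraries in 1 fit for differences between times. Alternatives used limma 3.58.1 on log2(RPKM + 0.1) and log2(RPKM + 1), DESeq2 1.42.0, other scalings and filters, and fewer libraries. CPM is on 1 TMM scale, SD is over 5 mice, intervals are 95%. The members and all lists were chosen with earlier results of these data known. All 10 members are named; of each family list the called genes are counted and up to 3 with the smallest p per comparison are named, except some that are not reported here. Slc19a2, Dgkk, Dgkz, Pex7, Far1, Marveld1 and the genes next to members on the chromosome were named after their values were seen. The count test was tested on simulated data. Annotation is GENCODE M21, and promoters are from RefSeq (GRCm38.p6). The exact intervals on summed counts pool the 5 mice of a group. They cover counting error only and leave out the spread between mice. PCR duplicates were not marked by molecular identifiers.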

Additional observations from a re-analysis of the deposited data

Results flagged for a closer look

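In groups of 5, a sample was singled out where its gap to the nearest other, divided by the range of the group, passed Dixon's critical value of 0.71. Of 64 groups with at least 15 summed counts, 6 held such a sample, and chance gives about 1 in 20. Agps had 93.3 CPM in CLA replicate 4 at 108 h, beside 76.4 to 81.1 CPM in the other CLA mice, and 120 CPM in estrogen replicate 4 at 84 h, beside 101 to 105 CPM in the other estrogen mice. Cyp3a57 had 0.0533 CPM in CLA replicate 3 at 108 h, beside 0.853 to 1.11 CPM. That library also had the lowest luminal mean of its group, 0.26 log2 CPM beside 2.91 to 3.42, and no count of Gm16485. Gm16485 had 0.576 CPM in control replicate 1 at 60 h, beside 0.0662 to 0.0971 CPM. Ptpn5 had 0.443 CPM in control replicate 2 at 108 h, beside 0.0324 to 0.118 CPM. Slc35f3 had 0.882 CPM in control replicate 4 at 132 h, beside 1.46 to 1.66 CPM. No cause was tested for any of them.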

How the results depend on the processing

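The number of members called under CLA at 108 h, 1 in the edgeR fit, was 0 with upper-quartile scaling and without the 9 libraries high in skin genes, an alternative chosen after seeing the data, and 2 with limma on log2(RPKM + 0.1), with limma on log2(RPKM + 1) and with only the groups compared. Leaving out each replicate gave 0 to 3. At 132 h the number, 4 with Cxcl15, was 2 with limma at either pseudocount and 3 to 5 when a replicate was left out. Between control mice at 132 h and 108 h it was 0, and 1 with DESeq2, the stricter filter of 50 counts or only the groups compared, with 0 to 1 when a replicate was left out. The causes were not tested. No share of all genes called is given for these alternatives, so nothing particular is read from the counts. The number of members called under estrogen kept to within 1.5 times under every alternative run. The members were picked on these contrasts, so nothing is read from that. No value called under CLA changed sign. The size of the estrogen differences did depend on the table: limma on RPKM with a pseudocount of 0.1 and of 1, a scale that understates low genes, gave 2.25 and 0.49 for Ptpn5 at 84 h (6.0 in counts), 0.68 and 0.10 for Dgki at 60 h (1.82), 1.07 and 0.16 for Dmbt1 at 60 h (6.79), 1.93 and 0.36 for Cxcl15 at 84 h (5.45), 3.41 and 1.14 for Cyp3a57 at 60 h (5.33) and 3.07 and 0.96 for Gm16485 at 60 h (4.88). Other calls that turned were Dgki and Rasgrf1 at 108 h. Dgki was called there with only the groups compared (adjusted p 0.0134) and without CLA replicate 3 (0.0265). Rasgrf1 was called there with limma on log2(RPKM + 0.1) (0.0310) and log2(RPKM + 1) (0.0355), without control replicate 4 (0.0309) and without CLA replicate 3 (0.0274). Ptpn5 at 132 h lay past the threshold without control replicate 4 (-1.36, adjusted p 0.0389), which is not read as a call. It entered that fit only through its estrogen counts, with 14 counts in CLA mice and 26 in control mice. With all libraries, limma on log2(RPKM + 0.1) gave 0.02 for it (adjusted p 0.933). Without the 9 libraries, which leaves 2 control mice at 132 h, Ptpn5 and Cyp3a57 differed under CLA there by 0.86 and 0.27. With all libraries they differed by -1.11 and -0.71, and none of these was called. Limma on log2(RPKM + 0.1) moved the median of all genes to 0.12 under CLA at 132 h. With animal-number runs added to the model, edgeR called 1 member under CLA at 108 h and 4 at 132 h, as without it. No paired analysis was possible because the labels give each mouse its own animal number and name no pairs of mice between groups.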
